A study of Homo sapiens with 8 samples.

Results

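Matrix metalloproteinases (MMPs) and their tissue inhibitors (TIMPs) were followed in HuCCT1, an established human intrahepatic cholangiocarcinoma cell line, with control hairpins and with hairpins against BEX2. The 10 genes were chosen by name: MMP1, MMP2, MMP7, MMP9, MMP10, MMP13, MMP14, TIMP1, TIMP2 and TIMP3, of 34809 gene names on the array. Total RNA was hybridised to 8 single-colour Agilent arrays, 2 for each of 4 short-hairpin (shRNA) vectors. The control arm held the vectors shControl and shNontarget, and the knockdown arm held shBEX2-1 and shBEX2-2, so that each arm had 4 arrays. The BEX2 hairpins were carried by a retroviral vector, and the labels name no other treatment. In the study's methods the target sequences of both BEX2 hairpins are, apart from their ends, the same site read on opposite strands, so the sublines do not test separate sites. The study describes a hairpin against luciferase as control, and the labels do not say which control vector carried it. No source says whether replicate arrays stem from separate cultures, and the p-values then measure only the spread between these arrays, which may be technical.

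MMPs are zinc-dependent endopeptidases that cut collagens, laminins, fibronectin and many cell-surface and secreted proteins. Most are made as inactive precursors, whose propeptide is removed outside the cell by other proteases such as plasmin or by other MMPs, or inside it by furin-like convertases. TIMPs bind the active site of the mature enzymes and block them, and TIMP2 also takes part in the activation of pro-MMP2 by MMP14 at the cell surface. MMP7, or matrilysin, is made by epithelial cells, in contrast to many MMPs that are made mainly by stromal cells, and is known in biliary epithelium and in carcinomas.

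Each member was represented by 1 probe, spotted 10 times per array for MMP1 and MMP9 and 2 times for the others. Values are log2 of the processed intensity, averaged over the spots of a probe, minus the 75th percentile of the array, so that 0 is the intensity at that percentile. A probe was taken as well above background on an array where the scanner software said so for at least 1 of 2 spots (5 of 10), and a gene was tested where this held on at least 4 of the 8 arrays. In all, 7 members passed and 3 (MMP2, MMP13 and TIMP3) did not, and 6 were well above background on all 8 arrays. The probes of MMP7, MMP10, MMP1 and MMP13 lie, in this order, on the minus strand of chromosome 11, that of MMP7 at chr11:102394029-102394088 and that of MMP10 at chr11:102641405-102641464 (hg19). The probe of MMP1 lies at chr11:102660697-102660756 and that of MMP13 at chr11:102813773-102813832 in the same build.

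The arrays were on the same slide and were scanned together, with the control and the knockdown arrays in separate rows, so that row and arm cannot be told apart. Per array, 59.8% to 64.6% of 58717 spots exceeded background well, and none was saturated. All 6 cholangiocyte markers examined, among them KRT19 and EPCAM, were well above background on all 8 arrays, whereas none of 4 hepatocyte markers was on all arrays, and ALB and TTR were on none. Of the fibroblast markers LUM and COL1A1 were above background on all 8 arrays and COL3A1 on none, and of the 3 endothelial markers VWF and CDH5 were on all 8 and PECAM1 on none. Of the 3 leukocyte markers only CD14 was above background on all 8 arrays. It was higher after knockdown (log2 difference 0.54, limma, adjusted p = 0.0296). Summed linear levels of that list, in units of the 75th percentile, were 0.366 to 0.497 on control and 0.549 to 0.614 on knockdown arrays. That sum is mostly CD14, which read -1.70 to -0.93 over the 8 arrays, beside PTPRC at -5.35 to -3.85. The sums of the other marker lists overlapped between the arms. The part of these genes in the results was not tested. BEX2 itself was measured by a probe with only 1 spot per array. It was lower in the knockdown arm (log2 difference -1.63, SE 0.32, limma, adjusted p = 0.0116), at -3.91 to -2.70 on the control arrays and -5.54 to -4.60 on the knockdown arrays. In shBEX2-1 cells BEX2 was not well above background. Against both controls it passed for shBEX2-1 (-1.94, adjusted p = 0.0335) but not for shBEX2-2 (-1.32, adjusted p = 0.0812), where it was still well above background. The call between arms was lost with normexp background correction (-0.45, adjusted p = 0.0800) and against shNontarget alone (-1.83, adjusted p = 0.0785). The shNontarget arrays stood apart in their spread. Their 2 replicates were over 1 log2 unit apart for 34.9% of the 20450 tested genes, against 1.76% in shControl, 1.56% in shBEX2-1 and 0.557% in shBEX2-2. Results on the members are therefore also given with either control vector alone.

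The sequence upstream of MMP7, the gene with the largest difference among the members, is shown with those of the other tested members found in the RefSeq promoter table (GRCh38.p14), which held 5 of the 10 members. Capitals mark the letters of 4 motifs searched on both strands in the 250 bases before the transcription start: AP-1 (TGAGTCA), ETS (AGGAAG), Sp1 (GGGCGG) and the TATA box (TATAAA). The MMP7 stretch covers chr11:102530748-102530997 on the minus strand, and those of MMP10 (chr11:102780629-102780728, minus strand), MMP14 (chr14:22836485-22836584, plus strand) and TIMP1 (chrX:47582336-47582435, plus strand) show the last 100 bases before the start.
MMP7: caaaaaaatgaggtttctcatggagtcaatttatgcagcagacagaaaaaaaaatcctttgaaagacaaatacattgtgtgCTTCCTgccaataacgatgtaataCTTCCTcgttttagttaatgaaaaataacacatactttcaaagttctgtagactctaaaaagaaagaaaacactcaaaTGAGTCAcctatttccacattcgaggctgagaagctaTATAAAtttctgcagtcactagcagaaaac
MMP10: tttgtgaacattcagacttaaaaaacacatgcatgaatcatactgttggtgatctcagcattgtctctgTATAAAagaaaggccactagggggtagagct
MMP14: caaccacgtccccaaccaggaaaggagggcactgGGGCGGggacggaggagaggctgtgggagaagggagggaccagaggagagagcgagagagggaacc
TIMP1: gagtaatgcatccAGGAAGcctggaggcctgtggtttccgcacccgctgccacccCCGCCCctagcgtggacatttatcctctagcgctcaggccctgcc
The MMP7 stretch held an AP-1 match whose first base was 67 bases before the start, ETS matches on the opposite strand at 169 and 145 bases, and a TATA box at 30 bases. MMP10 had a TATA box at 31 bases, MMP14 an Sp1 match at 66 bases, and TIMP1 an ETS match at 87 bases with Sp1 matches on the opposite strand at 45 bases and, outside the printed stretch, at 135 bases. MMP7 was the only one of the 5 members in the table with the AP-1 letters, which 4.20% of all 35116 promoters held in the same window. MMP1, MMP2, MMP9, MMP13 and TIMP2 were missing from the table, so they were not searched and may hold the letters too. The ETS letters were in 28.7%, the Sp1 letters in 42.6% and the TATA letters in 10.7% of them. A match is a description of letters and not a binding site.

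Between the knockdown and the control arm, MMP7 fell and no other tested member passed the test. Of the 7 tested members, 1 was called lower and 0 higher at an adjusted p under 0.05, beside 13% of all 20450 genes (6.68% higher and 6.27% lower). The median log2 difference of the tested members was 0.18 and that of all genes 0.027. MMP7 was also the only tested member whose arms did not overlap, which held for 22.2% of all genes, and for 10.7% with the knockdown arrays lower. At an unadjusted p under 0.05, limma gave 1 of the 7 members beside 27.8% of all genes, and the Student's t-test of the methods also gave 1, and 0 after Benjamini-Hochberg adjustment.

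**Figure D1:**
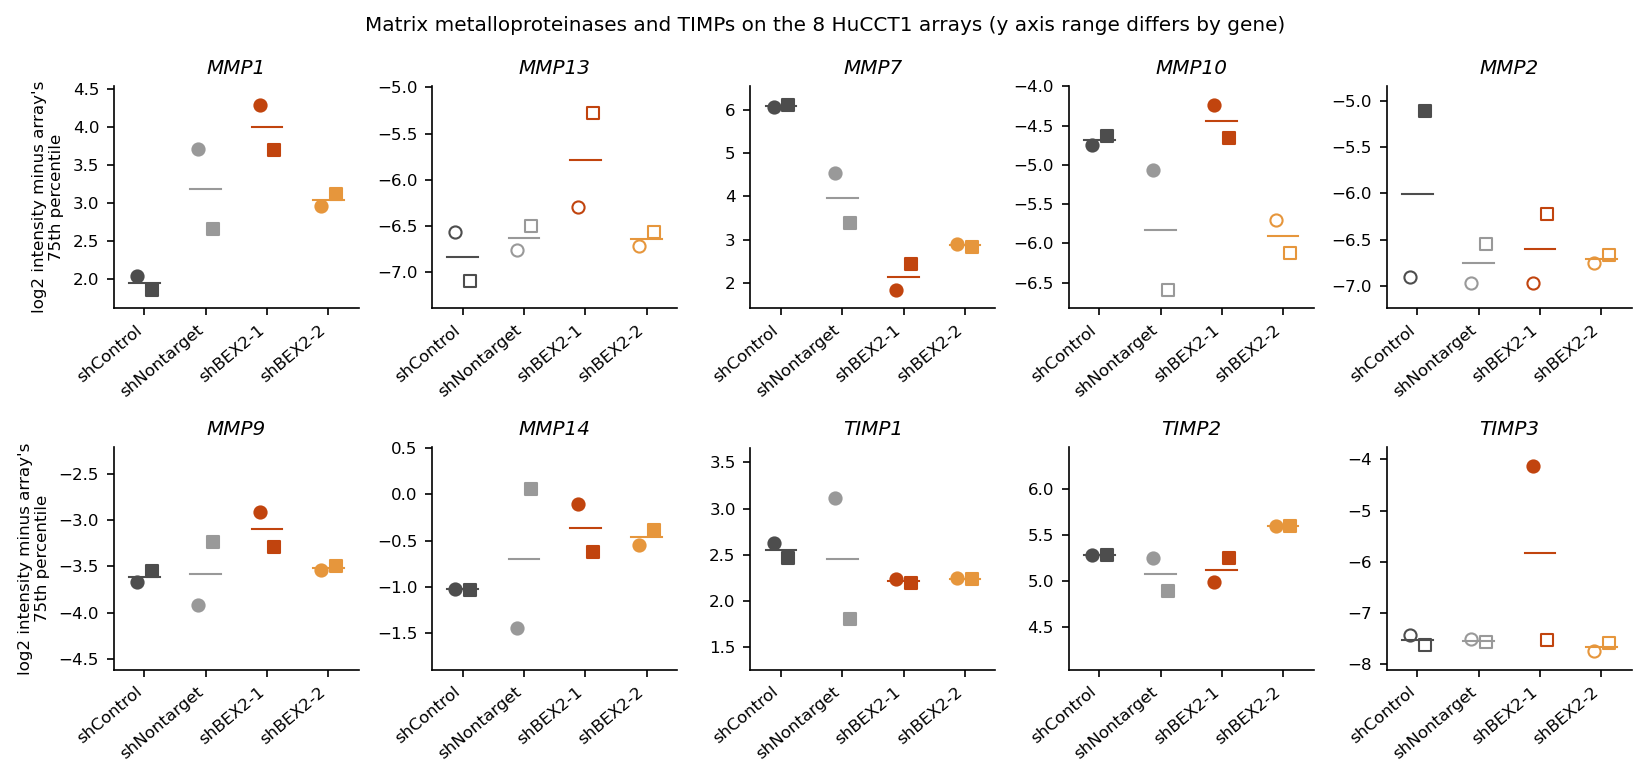
Normalized log2 intensity (y axis, range differing by gene) of the 10 members on the 8 arrays, by vector (x axis). Circles are replicate 1, squares replicate 2, horizontal lines the mean of the vector; filled points were well above background in at least 1 of 2 (5 of 10) spots. MMP7 lay between 1.84 and 2.90 on the knockdown arrays and between 3.39 and 6.12 on the control arrays.

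MMP7, the matrilysin, read 6.07 and 6.12 in shControl cells, 4.55 and 3.39 in shNontarget cells, 1.84 and 2.43 in shBEX2-1 cells, and 2.90 and 2.83 in shBEX2-2 cells. Each knockdown array was below each control array, with a gap of 0.50 between the highest of the former and the lowest of the latter, the second shNontarget array. The spots of the probe averaged intensities of 49010 and 58457 on the shControl arrays, 17474 and 7001 on the shNontarget arrays, 1581 and 2780 on the shBEX2-1 arrays, and 4590 and 4489 on the shBEX2-2 arrays, before scaling. The spots of an array lay close together, from 6943 to 7059 on the second shNontarget array for instance, so that the spread lies between arrays and not between spots. Across arms the log2 difference was -2.53 (SE 0.58, 95% interval -3.83 to -1.23), that is 5.79-fold lower in knockdown cells (limma, adjusted p = 0.0217). An exact two-sided permutation test of the same 4 against 4 arrays gave p = 0.0286, the smallest that its 70 relabellings allow. Every gene whose arms do not overlap, 22.2% of all genes, gets this p, so it adds nothing to the gap between the arms. The other tested members gave p = 0.14 to 0.97 in the permutation test. Both tests treat the arrays of a vector as independent, although the hairpin differed by vector and not by array. The size turned on the control vector. Against shControl alone, where 33.5% of all genes were called, the difference was -3.60 (adjusted p = 0.000214), and against shNontarget alone, with 1.66% called, it was -1.47 and did not pass (adjusted p = 0.122). Leaving out a single array kept the sign, at -3.08 to -2.17, but the call was kept only without either shNontarget array (adjusted p = 0.0159 and 0.00287) and was lost without any of the other 6, at adjusted p = 0.0523 to 0.0708.

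MMP1, the interstitial collagenase, which cleaves fibrillar collagens, showed values of 2.04 and 1.86 in shControl cells, 3.71 and 2.66 in shNontarget cells, 4.30 and 3.71 in shBEX2-1 cells, and 2.96 and 3.11 in shBEX2-2 cells. The shControl arrays were the lowest and the first shBEX2-1 array the highest, and the arms overlapped through the first shNontarget array. The difference between arms was 0.95 (SE 0.43, 95% interval -0.020 to 1.92) and did not pass (limma, adjusted p = 0.188). It passed against shControl alone (1.57, adjusted p = 0.0115) and without the first shNontarget array (1.33, adjusted p = 0.0206), and was 0.34 against shNontarget alone (adjusted p = 0.741). MMP13, the other collagenase of the group, exceeded background well on 0 of 8 arrays, with values between -7.10 and -5.28 and single spots of at most 17.4 in intensity, so that no difference was detectable for it.

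The gelatinases cleave denatured collagen and the type IV collagen of basement membranes. MMP9 was well above background in all of its 10 spots on every array, at -3.67 and -3.55 in shControl cells, -3.92 and -3.23 in shNontarget cells, -2.91 and -3.29 in shBEX2-1 cells, and -3.54 and -3.50 in shBEX2-2 cells. The arms overlapped, and the difference of 0.29 (SE 0.22, 95% interval -0.20 to 0.78) did not pass (limma, adjusted p = 0.440), nor did it against shControl alone (0.30, adjusted p = 0.295) or shNontarget alone (0.27, adjusted p = 0.686). MMP2 was well above background in 1 spot of the second shControl array, which read 60.1 while its twin spot read 9.85. All other spots of MMP2 were at most 10.2 and not well above background.

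MMP10, or stromelysin 2, a protease of broad specificity that also activates other pro-MMPs, lay near the detection limit. It read -4.75 and -4.63 in shControl cells, -5.06 and -6.59 in shNontarget cells, -4.23 and -4.66 in shBEX2-1 cells, and -5.70 and -6.12 in shBEX2-2 cells. All of its spots were well above background on the shBEX2-1 arrays, at 20.2 to 25.1 in intensity, and none on the shBEX2-2 arrays, at 6.14 to 13.3. In the control arm both spots passed on the first shControl array, 1 of 2 on the second and on the first shNontarget array, and none on the second shNontarget array. Between arms the difference was 0.076 (SE 0.55, 95% interval -1.16 to 1.32; limma, adjusted p = 0.950), and its sign turned against shControl alone (-0.49, adjusted p = 0.504), while it was 0.64 against shNontarget alone (adjusted p = 0.669).

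**Figure D2:**
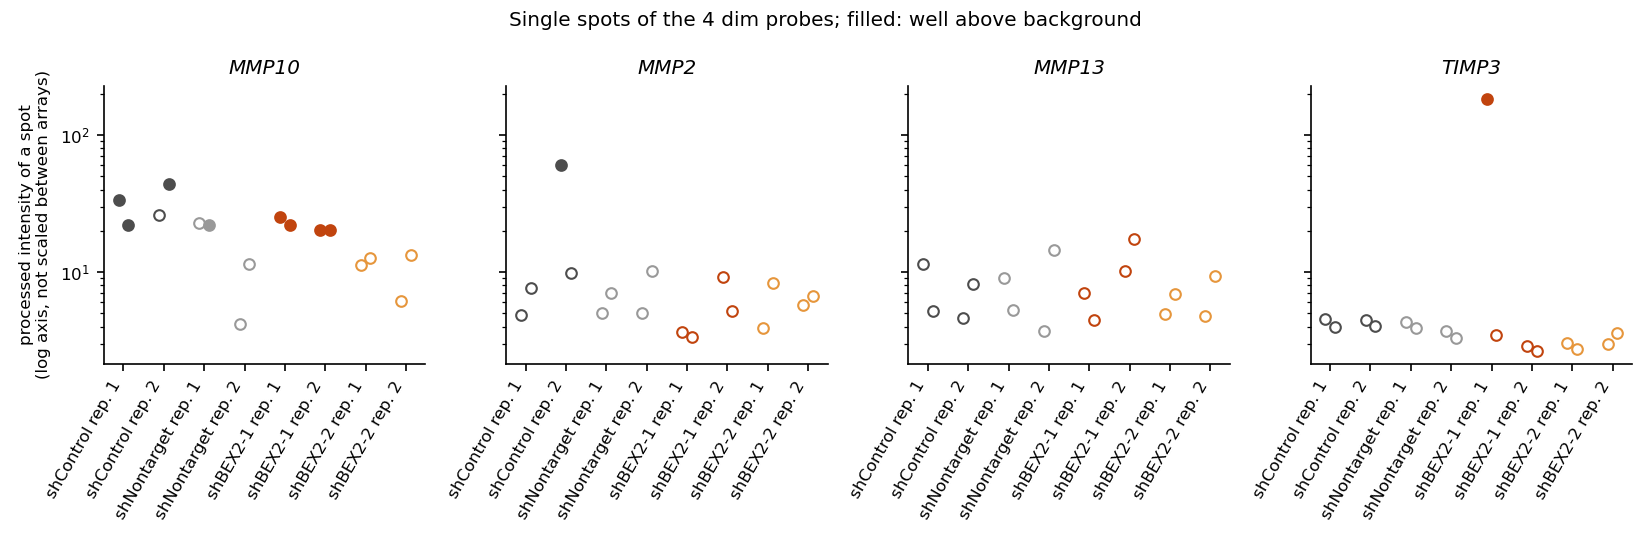
Processed intensity of the single spots (y axis, log scale, not scaled between arrays) of MMP10, MMP2, MMP13 and TIMP3 on each array (x axis); filled points were well above background by the scanner software. Single bright spots stand out for MMP2 (60.1, second shControl array) and TIMP3 (184.2, first shBEX2-1 array), each beside a dim twin.

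MMP14, the membrane-type 1 enzyme that acts at the cell surface and activates pro-MMP2, read -1.03 on both shControl arrays, -1.44 and 0.054 in shNontarget cells, -0.11 and -0.62 in shBEX2-1 cells, and -0.55 and -0.38 in shBEX2-2 cells. The shNontarget arrays were the lowest and the highest of all 8, so that the arms overlapped fully. The difference was 0.44 (SE 0.29, 95% interval -0.22 to 1.11) and did not pass (limma, adjusted p = 0.374). It passed against shControl alone (0.61, adjusted p = 0.0175) and without the second shNontarget array (0.75, adjusted p = 0.0173). It did not pass against shNontarget alone (0.28, adjusted p = 0.760) or without the first shNontarget array (0.25, adjusted p = 0.542).

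Among the inhibitors, TIMP1, a broad inhibitor of secreted MMPs, read 2.63 and 2.47 in shControl cells, 3.12 and 1.81 in shNontarget cells, 2.24 and 2.20 in shBEX2-1 cells, and 2.25 and 2.24 in shBEX2-2 cells. The 4 knockdown arrays were within 0.049 of each other, whereas the shNontarget arrays were the extremes on either side, in the opposite order to MMP14. The difference of -0.28 (SE 0.24, 95% interval -0.82 to 0.27) did not pass (limma, adjusted p = 0.511). Against shControl alone it was -0.32 (adjusted p = 0.0178), and without the second shNontarget array it was -0.51 (adjusted p = 0.0485). Neither against shNontarget alone (-0.23, adjusted p = 0.762) nor without the first shNontarget array (-0.072, adjusted p = 0.819) did it pass.

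TIMP2, the inhibitor that also bridges MMP14 and pro-MMP2, read 5.29 and 5.28 in shControl cells, 5.25 and 4.89 in shNontarget cells, 4.98 and 5.25 in shBEX2-1 cells, and 5.59 and 5.60 in shBEX2-2 cells. Both shBEX2-2 arrays were above all others, and the shBEX2-1 arrays lay within the control range. Between arms the difference was 0.18 (SE 0.18, 95% interval -0.23 to 0.59; limma, adjusted p = 0.578), with 0.075 against shControl alone (adjusted p = 0.779) and 0.28 against shNontarget alone (adjusted p = 0.605). TIMP3, which binds to the extracellular matrix, was well above background in 1 spot alone, on the first shBEX2-1 array, at 184.2 beside a twin of 3.45. The other spots of TIMP3 read 2.64 to 4.53, and no change was detectable for it.

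Each BEX2-knockdown subline was then set against the mean of both control vectors, in a model with a mean for each vector. The spread in this model is that between arrays of the same vector, and is shared by all arrays. Its p-values therefore leave out differences between vectors, such as that between shControl and shNontarget. These comparisons also share the control arrays. MMP7 was the only member called in either, beside 7.01% of all genes for shBEX2-1 (3.39% higher and 3.62% lower) and 9.67% for shBEX2-2 (4.86% higher and 4.81% lower). It was 7.44-fold lower in shBEX2-1 cells (log2 difference -2.90, SE 0.34, limma, adjusted p = 0.00957) and 4.50-fold lower in shBEX2-2 cells (-2.17, SE 0.34, adjusted p = 0.0148). With shNontarget as the only control these values were -1.83 (adjusted p = 0.0652) and -1.11 (adjusted p = 0.173). MMP1 was 1.43 (SE 0.32, adjusted p = 0.0527) in shBEX2-1 and 0.47 (SE 0.32, adjusted p = 0.456) in shBEX2-2 cells. At an unadjusted p under 0.05 there were 2 of the 7 members in each comparison, beside 22.8% and 23.8% of all genes: MMP7 with MMP1 for shBEX2-1 and MMP7 with TIMP2 for shBEX2-2 (0.42, SE 0.17, adjusted p = 0.209). The MMP7 call for shBEX2-1 was lost without any single array other than the shNontarget arrays (adjusted p = 0.0503 to 0.145). For shBEX2-2 it was lost without either shControl array or either of its own arrays (adjusted p = 0.0701 to 0.165).

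**Figure D3:**
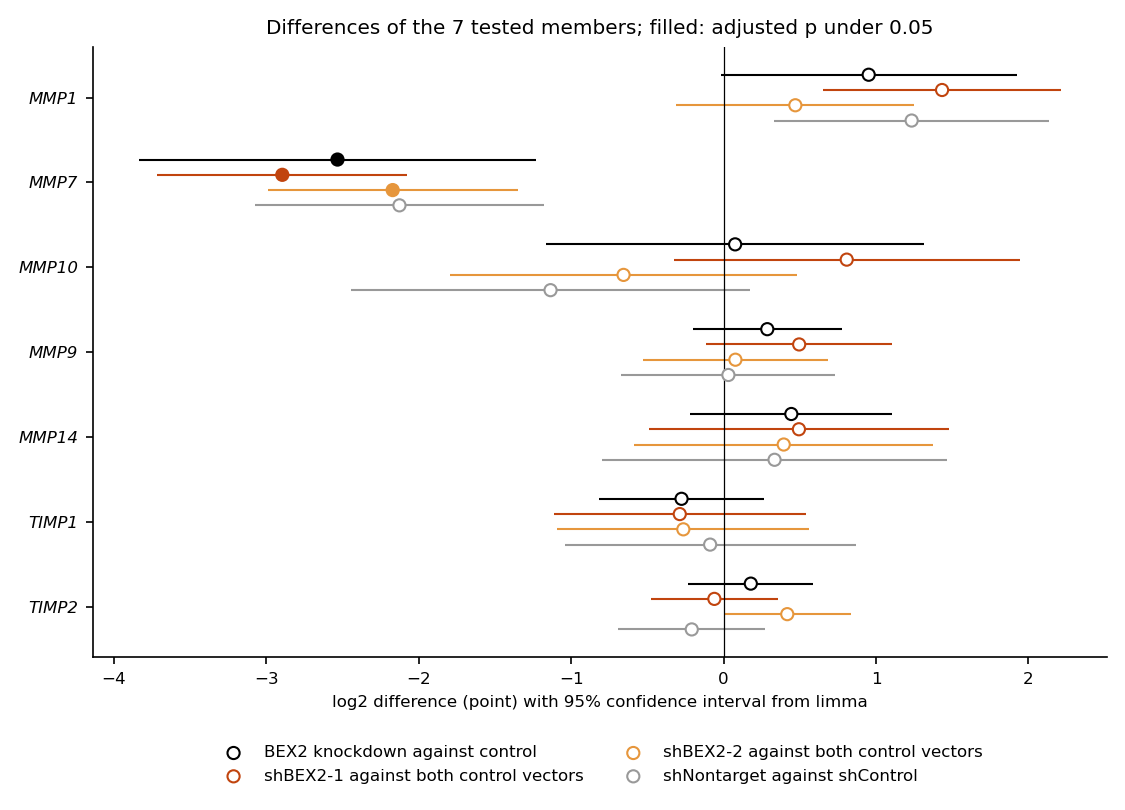
log2 difference (x axis, points) with its 95% confidence interval (lines) of the 7 tested members (y axis) in 4 comparisons, each a colour; filled points had an adjusted p under 0.05. Only MMP7 was filled, at -2.53, -2.90 and -2.17, and its unfilled value between the control vectors was -2.13.

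The sublines were also compared directly, a difference in which control arrays enter only through the shared spread. No member was called, and 2 of the 20450 genes were (0.00978%). For MMP7 the log2 difference, shBEX2-1 minus shBEX2-2, was -0.72, with a 95% interval of -1.67 to 0.22 (limma, adjusted p = 0.867). MMP10 and MMP1 had an unadjusted p under 0.05, as did 7.3% of all genes. MMP10 was 2.76-fold higher in shBEX2-1 cells by the fit (log2 difference 1.46, 95% interval 0.15 to 2.78, limma, adjusted p = 0.603). Its shBEX2-2 values were not well above background, yet exceeded the dimmest signal called so on their arrays. MMP1 was higher by 0.96 (SE 0.37, adjusted p = 0.637), and TIMP2 was at -0.48 (SE 0.20, adjusted p = 0.691). Without the first or the second shNontarget array, MMP1 and MMP10 passed as higher and MMP7 and TIMP2 as lower in shBEX2-1 cells, among 2950 and 3015 of the 20450 genes.

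Between the control vectors no member passed the test. No gene was called between shNontarget and shControl (0% of 20450), while 1565 genes (7.65%) had an unadjusted p under 0.05 by limma. MMP7 was 4.37-fold lower in shNontarget cells (log2 difference -2.13, SE 0.39, 95% interval -3.07 to -1.18, adjusted p = 0.344) and MMP1 was 2.35-fold higher (1.23, SE 0.37, adjusted p = 0.497). Both were the members with an unadjusted p under 0.05, at 0.00142 and 0.0150. For MMP7 the shNontarget arrays stood between the shControl and the knockdown arrays. For MMP10 the value was -1.14 (SE 0.54, adjusted p = 0.726). Without the first shNontarget array the MMP7 difference was -2.70 (adjusted p = 0.000286) and without the second it was -1.55 (adjusted p = 0.000923). In these fits 9237 and 9464 of the 20450 genes were called. MMP1 also passed as higher in both, and TIMP1 passed in both with opposite signs, lower without the first and higher without the second array. Without the first array MMP14 passed as higher and MMP10 and TIMP2 as lower too.

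The wider protease system was described with 5 lists of related genes, which hold none of the 10 members and are to be read beside the 13% of all genes called between the arms and their median of 0.027. None of the 9 tested of 18 other MMPs and TIMP4 was called by limma, none had an unadjusted p under 0.05, and the methods' t-test gave 0 as well. Their median log2 difference was -0.083. The farthest from 0, named after its values were seen, was MMP11, stromelysin 3 (-0.61, SE 0.30, adjusted p = 0.232). Among the activators and other inhibitors 3 of 15 tested genes rose and 1 fell, with a median of 0.094. SERPINB2, an inhibitor of the urokinase and tissue plasminogen activators, rose by 2.81 (SE 0.26, adjusted p = 0.000825), from between -1.32 and -0.86 on control arrays to between 1.20 and 2.28 on knockdown arrays. TFPI2, a Kunitz-type inhibitor of plasmin and other serine proteases, rose by 1.98 (SE 0.33, adjusted p = 0.00659). PLAT, the tissue plasminogen activator, rose by 1.32 (SE 0.21, adjusted p = 0.00493) and was named after its values were seen. Its difference against a single control vector is not given. CTSD, the lysosomal protease cathepsin D, fell by 0.80 (SE 0.11, adjusted p = 0.00325). The urokinase gene PLAU, also named after its values were seen, did not pass (-0.21, SE 0.14, adjusted p = 0.395).

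Of the ADAM and ADAMTS genes, which encode cell-surface sheddases and matrix proteases, 1 of 10 tested fell. It was ADAM19 (-1.33, SE 0.20, adjusted p = 0.00421), and the list's median was -0.023. Of the matrix substrates 1 of 18 tested rose, COL4A6, a type IV collagen chain (2.28, SE 0.28, adjusted p = 0.00170), from between -4.49 and -3.10 to between -1.82 and -1.41, and by 1.34 with normexp background correction (adjusted p = 0.000996). The median of the substrates was -0.087. Against shNontarget alone SERPINB2 (2.94, adjusted p = 0.0293), TFPI2 (2.59, adjusted p = 0.0251) and COL4A6 (2.18, adjusted p = 0.0468) still passed. CTSD (-0.72, adjusted p = 0.0719) and ADAM19 (-1.01, adjusted p = 0.0573) did not.

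**Figure D4:**
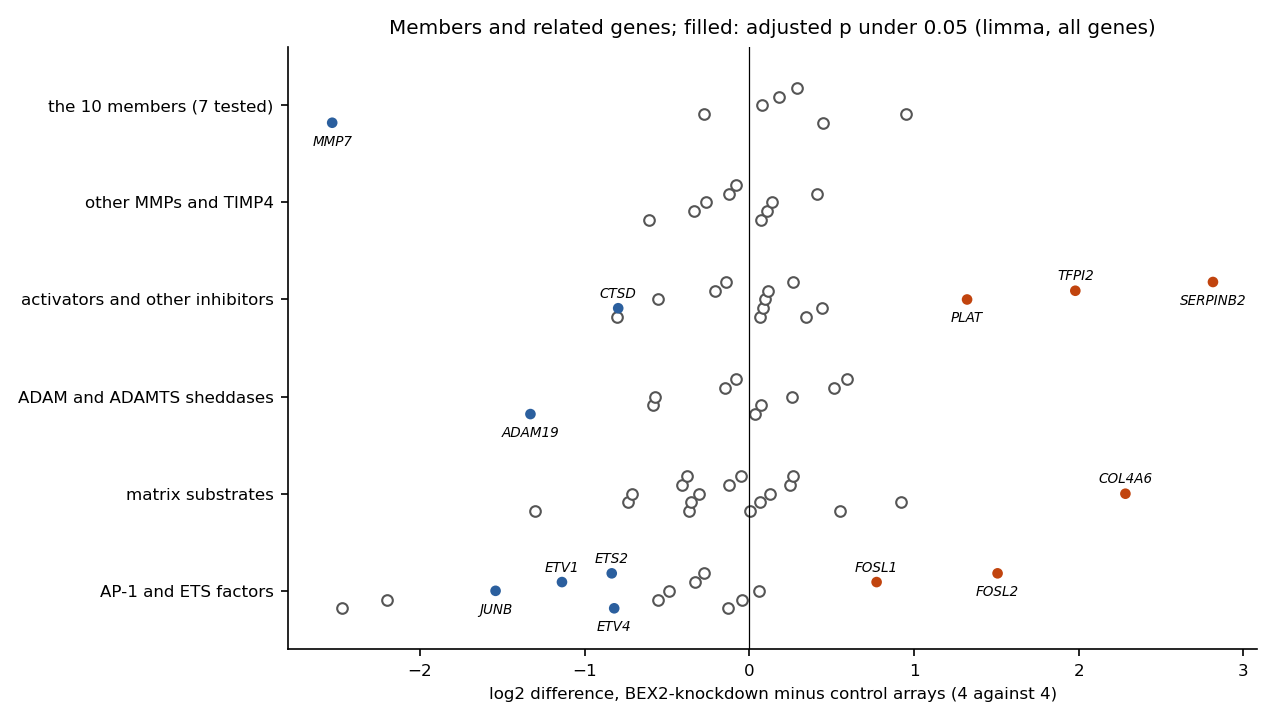
log2 difference between knockdown and control arrays (x axis) of each tested gene of the members and of the 5 related lists (y axis, points spread vertically for legibility); filled red points rose and filled blue points fell at an adjusted p under 0.05. SERPINB2 (2.81) and COL4A6 (2.28) lie farthest to the right among filled points, MMP7 (-2.53) farthest to the left.

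Transcription factors of the AP-1 and ETS families are known for motifs with the letters marked upstream of MMP7. Binding at MMP7 was not measured, and a part of these factors in its difference was not tested. Of 15 tested factors 2 rose and 4 fell, with a median log2 difference of -0.49. FOSL2 rose by 1.51 (SE 0.21, adjusted p = 0.00294) and FOSL1 by 0.77 (SE 0.18, adjusted p = 0.0263), both partners of JUN proteins in AP-1. JUNB fell by 1.54 (SE 0.23, adjusted p = 0.00365) and the ETS factor ETV1 fell by 1.14 (SE 0.15, adjusted p = 0.00237). The other ETS factors that fell were ETS2 (-0.84, SE 0.16, adjusted p = 0.0111) and ETV4 (-0.82, SE 0.20, adjusted p = 0.0300), named after their values were seen. ETV4 read -1.34 to -0.76 on control and -2.22 to -1.44 on knockdown arrays, so its arms lay close. Values of ETS2 and ETV4 against a single control vector are not given. The 4 probes of ETV1 disagreed, at -1.14, 0.0068, -0.51 and -1.07, and ETV1 was at -0.71 with normexp (adjusted p = 0.00815) and -0.68 as the mean of its probes (adjusted p = 0.0266). Against shNontarget alone JUNB (-1.75, adjusted p = 0.0428) and ETV1 (-1.32, adjusted p = 0.0327) passed, whereas FOSL2 (1.60, adjusted p = 0.0504) and FOSL1 (0.58, adjusted p = 0.236) did not. FOSL1 also lost its call without any single array other than the shNontarget arrays (adjusted p = 0.0634 to 0.0812). FOS, also named after its values were seen, was at 0.51 and 3.73 on the shNontarget arrays and at -3.21 to -2.77 on all others, and did not pass between arms (-2.47, SE 1.33, adjusted p = 0.269).

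The genes whose levels followed MMP7 most closely over the 8 arrays were CHST15, a sulfotransferase of chondroitin sulfate chains, TESC, a calcium-binding protein, and RTN2, a reticulon. Their Pearson r with MMP7 was 0.998, 0.998 and 0.994, and 282 of the tested genes had an r above 0.9 while 280 had one below -0.9. These values describe 8 arrays that fall into 4 vectors and share their scaling. Being chosen for their likeness to MMP7 on the same arrays, they are named with no test. Their log2 differences between the arms were -0.63 (CHST15), -1.53 (TESC) and -0.64 (RTN2).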

How the data were processed

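The authors labelled total RNA with Cy3 (Low Input Quick Amp), hybridised Agilent arrays of design 028004 and read them with Feature Extraction 10.7.3.1 (the submitters' processing notes). The deposited intensity of each spot is background-subtracted and detrended within its array and not scaled between arrays. The whole-series table that the authors deposited, which holds the same intensity, served as an alternative. The number of arrays limits the precision.

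Control spots and non-uniformity outliers were left out, spots of a probe were averaged on the log2 scale after subtraction of the array's 75th percentile, and the brightest probe stood for a gene. Of all genes, 20450 were well above background on at least 4 arrays. Arms were compared with limma 3.58.1 (lmFit, eBayes with an intensity trend; R 4.3.3), vectors in a 4-vector limma model, with Benjamini-Hochberg adjustment over all tested genes, a call at an adjusted p under 0.05, and 95% intervals. The fits were tested on simulated data, in which a gene had the same spread on every array and vectors of an arm did not differ. The rank product test of the study's methods was not used here. Alternatives covered normalization (quantile, normexp with an offset of 50), filters, probe averaging, replicate and vector blocks, single control vectors, the methods' t-test and each array left out. The members and lists were chosen with earlier results of these data known. A gene of the lists is not reported here and was left out of their counts. Named beside the members were the 2 called genes of each list with the largest change in each direction and the 3 genes most like MMP7. Python 3.11.15, pandas 2.3.3, numpy 2.4.6 and matplotlib 3.10.9 read the files and drew the figures.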

Additional observations from a re-analysis of the deposited data

Results flagged for a closer look

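In the arms of 4 arrays, 20 gene and arm combinations were checked for an array far from the other 3 (Dixon's ratio of gap to range above its 95% critical value), of which chance gives about 1 in 20, and 2 stood out. TIMP2 on the second shNontarget array was the lowest control value (4.89 against 5.25 to 5.29, ratio 0.919). TIMP3 on the first shBEX2-1 array was the highest knockdown value (-4.13 against -7.74 to -7.54, ratio 0.943), and there 1 of the 2 spots of the probe was bright (184.2 against 3.45).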

How the results depend on the processing

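MMP7 kept its sign in the comparison of the arms under every alternative run. It was called lower with quantile normalization, normexp, the whole-series table, no or a stricter filter on dim probes, either block and no intensity trend. The call also held with the mean of probes, which leaves MMP7 unchanged since it has 1 probe. It held too in the 4-vector model, whose SE of 0.28 counts only the spread between arrays of the same vector. The fitted correlation within a vector was -0.14, so the vector block made no allowance for likeness of arrays of the same vector. The SE of MMP7 was 0.56 with this block and 0.58 without. Members called lower fell to 0 against shNontarget alone, among 340 genes, and by the methods' t-test after adjustment, among 2169 genes. At an unadjusted p under 0.05 that t-test gave 1 member among 5418 genes. Against shControl alone 2 members were called higher and 2 lower among 6842 genes, and MMP10 turned to -0.49. For shBEX2-1, members called higher were 1 with quantile normalization (MMP1), 2 with normexp (MMP1 and MMP10, among 2407 genes) and 1 against shControl alone (MMP1). Against shNontarget alone 0 members were lower among 641 genes and TIMP2 turned to 0.044. For shBEX2-2 against shNontarget alone 0 members were lower among 1268 genes and MMP1 turned to -0.15. Between the sublines the 2 genes called became 17 with quantile normalization, 6 with the mean of probes, and 0 with normexp, no filter, detection on all 8 arrays, no trend and the replicate block.

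Leaving out 1 array gave 1246 to 4727 genes called between the arms, with 0 to 1 members higher and 0 to 2 lower. The ranges were 0 to 10816, 0 to 3 and 0 to 2 for shBEX2-1, 0 to 11147, 0 to 2 and 0 to 3 for shBEX2-2, 0 to 3015, 0 to 2 and 0 to 2 between the sublines, and 0 to 9464, 0 to 2 and 0 to 4 between the control vectors. The high counts came without a shNontarget array, where the spread between the remaining arrays is smaller and a lone array is assumed to vary like the others. In these fits MMP10 ranged from -0.37 to 0.39 between the arms, turning without the second shNontarget array (-0.37) or the first (-0.24) or second (-0.096) shBEX2-1 array. In shBEX2-1 cells TIMP1 ranged from -0.61 to 0.041 and TIMP2 from -0.19 to 0.072, turning without the first shNontarget array (0.041 and 0.030) and, for TIMP2, without the first shBEX2-1 array (0.072). In shBEX2-2 cells MMP9 ranged from -0.095 to 0.25 and TIMP1 from -0.59 to 0.064, turning without the first shNontarget array. Between the sublines MMP14 ranged from -0.16, without the first shBEX2-1 array, to 0.36. Between the control vectors MMP9 ranged from -0.31 to 0.38, MMP14 from -0.41 to 1.08 and TIMP1 from -0.74 to 0.57, all turning without the second shNontarget array (TIMP1 adjusted p = 0.00229), and MMP9 also without the first shControl array (-0.032). The cause of these changes was not tested.

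The replicate numbers were not taken to pair the arrays, since the labels do not say that they do. The replicate differences of the vector pairs correlated with r of 0.26, 0.13, 0.11, -0.063, 0.21 and 0.23 across genes. Genes are not independent replicates, so these values neither show nor exclude a pairing. With the replicate number as a block no call of a member changed, MMP7 included, and the genes called between the sublines went from 2 to 0. After the data were seen, 2 alternatives were added, leaving out population outlier spots, and taking a probe as detected only with more spots above background than not, which leaves MMP10 untested. Neither changed a call of a member. Where probes lie near the background, as for MMP2, MMP10, MMP13 and TIMP3, no small change was detectable.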
